A study of Mus musculus with 2 samples.

Results

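The Id family comprised 4 genes, Id1, Id2, Id3 and Id4, among the 12394 genes named on an array of mouse epididymal white adipose tissue. Its members were all probe sets annotated with exactly 1 of these symbols, 8 of 22690 probe sets, and no further probe set named an Id gene together with another gene. The family was chosen because Id3 was much lower in the knockout pool, so the differences below are descriptions of these arrays and none was tested. The study compared 2 pools of RNA, each from 5 male mice fed chow and each hybridised to 1 array. The wild-type pool came from mice aged 12 to 16 weeks with strain label 129S1/SvJae, although the design text calls the controls littermates on a mixed Sv129/C57BL/6 background. The knockout pool came from mice aged 12 weeks that lack PPARb/d, a fatty acid-sensing nuclear receptor encoded by Ppard, on the Sv129/C57BL/6 background. The sources used here do not say how the Ppard allele was made, and strain and age may differ along with genotype. With pooled RNA and 1 array per genotype there is no spread between animals, no standard error and no p-value.

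Id proteins are small helix-loop-helix proteins that lack the basic region needed to bind DNA. They pair with the ubiquitous E proteins and keep them from pairing with tissue-specific basic helix-loop-helix (bHLH) factors at E-box sites, and so hold back differentiation in many lineages. Id1, Id2 and Id3 are induced by bone morphogenetic proteins (BMPs) through receptor-activated Smads, and Id1 and Id3 are known from endothelial cells of growing vessels. Id2 has been linked to adipocyte differentiation, and Id4 is known from neural tissue and from spermatogonial stem cells of the testis.

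Values are intensities made by the authors with GCRMA, on a linear scale, and each difference is the log2 value of the knockout pool minus that of the wild-type pool. A probe set was kept when it reached an intensity of 32 (log2 5) on at least 1 array, which left 10518 probe sets and 6533 genes, each gene represented by its brightest kept probe set. The median difference over the kept genes was -0.08, with quartiles of -0.50 and 0.42. Among 2137 genes with several kept probe sets, the typical (median) SD of these differences within a gene was 0.25, which shows part of the technical error only. The single Ppard probe set was below the floor in both pools, at 6.58 in wild type and 6.27 in knockout, and gave no check of the genotype labels. Transcripts of testis germ cells stood far higher in the knockout pool: all 16 markers in the list were at least 2-fold higher, against 13.7% of all kept genes. Their median difference was 4.60, and their summed intensity was 3811 in wild type and 69630.4 in knockout. In RNA from whole tissue, fewer cells of a type and less RNA per cell cannot be told apart.

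The 4 Id genes were not alike in the knockout pool: Id3 and Id1 were lower, Id2 differed little, and Id4 was higher. Of the 8 probe sets, 6 were kept, of which 2 were at least 2-fold lower (Id1 and Id3), 2 at least 2-fold higher (both of Id4) and 2 within 2-fold (both of Id2). Over all kept probe sets, 8.87% were at least 2-fold lower and 12.2% at least 2-fold higher. Nothing is read from the members' count against these shares, because the family was picked on this contrast.

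**Figure D1:**
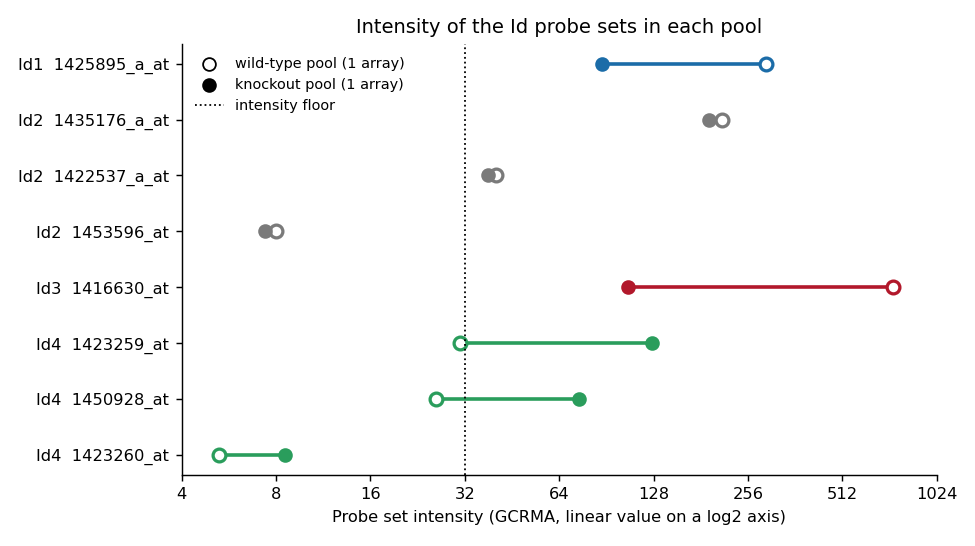
Intensity of the 8 Id probe sets on a log2 axis, with an open circle for the wild-type pool and a filled circle for the knockout pool, 1 array each; the dotted line is the intensity floor of 32. The lines of Id1 and Id3 run to lower values in the knockout pool, those of Id4 to higher values, and the circles of Id2 nearly coincide.

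Id3, the member with the largest difference, was measured by 1 probe set (1416630_at). It stood at 744 in wild type and 106 in knockout. The knockout value was thus well below the wild-type value, though still above the floor. The log2 difference was -2.81, a 7.03-fold lower intensity, and with dim values raised to the floor 5 of the 6533 kept genes were lower still, among them Lep, the satiety hormone leptin, at -2.87, and Mest, an imprinted gene linked to fat expansion, at -3.02.

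Id1 was also measured by 1 probe set (1425895_a_at). It stood at 292 in wild type and 87.6 in knockout, both above the floor. The log2 difference was -1.74, or 3.33-fold lower, and with dim values raised to the floor 96 kept genes (1.47%) were lower. Over all kept genes, 9.14% were at least 2-fold lower and 13.7% at least 2-fold higher. The difference of Id1 was smaller in size than that of Id3 by 1.08 on the log2 scale. As each gene had a single probe set, no second probe set showed the technical error of either value.

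Id2 had 3 probe sets, and none differed by 2-fold. The brightest (1435176_a_at) was at 212 in wild type and 192 in knockout. A second (1422537_a_at) stood at 40.3 and 37.9, and the third (1453596_at) was below the floor in both pools, at 7.99 and 7.40. The wild-type and knockout values were close at every probe set. The log2 differences were -0.14, -0.09 and -0.11, with an SD of 0.04 between the 2 kept probe sets. Of all kept genes, 17.0% were closer to no difference than Id2. The sign is not settled, since the difference of the brightest probe set was 0.0029 once the trend of differences with intensity was removed.

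Id4 was higher in the knockout pool at all 3 of its probe sets, which were designed on the same expressed sequence tag and are not independent. The first (1423259_at) was at 30.9 in wild type, just below the floor, and at 127 in knockout. The second (1450928_at) stood at 25.9, below the floor, and 74.2. The third (1423260_at) was below the floor in both, at 5.26 and 8.57. Id4 therefore reached the floor in the knockout pool and not in the wild-type pool. The log2 difference of the first probe set was 2.04, and with the wild-type value at the floor Id4 was at least 3.97-fold higher. The second differed by 1.52, at least 2.32-fold. Germ cell markers were higher in the same pool, with log2 differences from 2.25 for Sycp3 to 6.45 for Meig1 among those at or above the floor in both pools. Their part in the Id4 value was not tested.

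**Figure D2:**
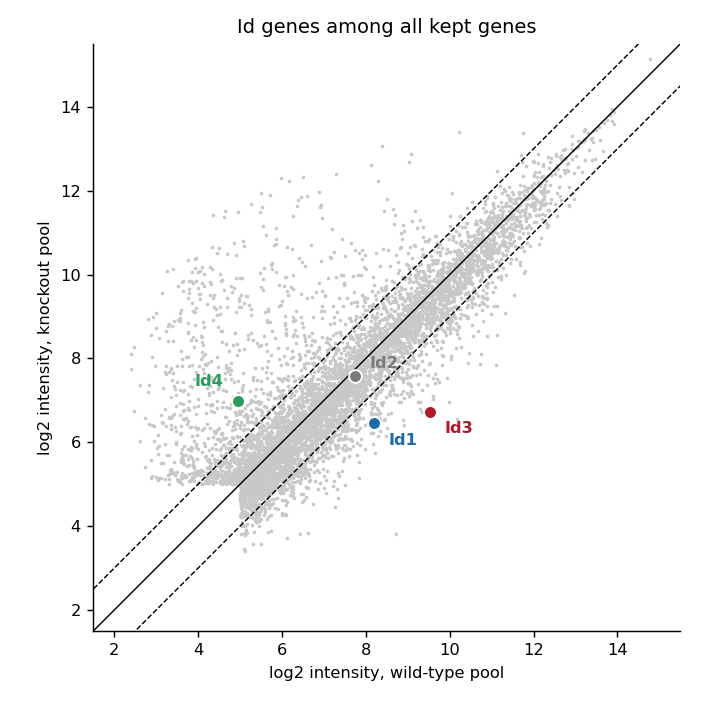
log2 intensity in the knockout pool against log2 intensity in the wild-type pool for the 6533 kept genes (grey), with the 4 Id genes in colour; the solid line marks equal values and the dashed lines a 2-fold difference. Id3 (-2.81) and Id1 (-1.74) lie below the lower dashed line, Id2 (-0.14) near the line of equal values, and Id4 (2.04) above the upper dashed line.

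The stretches before the annotated transcription starts are shown for a member that was lower, one that differed little and one that was higher. They are 250 bases each from RefSeq on GRCm38.p6, read 5′ to 3′ on the gene's strand and ending at the base before the start; Id1 had no entry. Id3 lies on the plus strand at chr4:136143572-136143821, Id2 on the minus strand at chr12:25096093-25096342, and Id4 on the plus strand at chr13:48260866-48261115. Capitals mark the E-box CANNTG, the site class bound by the E proteins that Id proteins sequester, and GGCGCC, a GC-rich site class bound by BMP-activated Smads. Both motifs read the same on either strand, and no match of one overlapped a match of the other.
Id3: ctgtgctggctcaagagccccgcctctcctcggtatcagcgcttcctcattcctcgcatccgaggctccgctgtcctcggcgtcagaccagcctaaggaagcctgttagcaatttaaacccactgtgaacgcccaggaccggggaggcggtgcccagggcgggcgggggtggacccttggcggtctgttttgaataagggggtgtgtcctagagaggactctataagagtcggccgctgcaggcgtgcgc
Id2: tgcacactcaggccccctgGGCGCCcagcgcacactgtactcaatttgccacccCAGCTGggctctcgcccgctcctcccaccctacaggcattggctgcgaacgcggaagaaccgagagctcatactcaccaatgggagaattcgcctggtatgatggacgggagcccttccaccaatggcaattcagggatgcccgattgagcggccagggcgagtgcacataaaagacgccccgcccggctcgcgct
Id4: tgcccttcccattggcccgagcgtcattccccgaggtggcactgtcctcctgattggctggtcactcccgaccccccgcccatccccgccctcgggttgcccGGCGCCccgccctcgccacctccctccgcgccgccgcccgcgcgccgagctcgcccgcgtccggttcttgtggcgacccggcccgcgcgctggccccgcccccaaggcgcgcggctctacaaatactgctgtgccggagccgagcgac
The Id3 stretch held neither set of letters. The Id2 stretch held 1 E-box, CAGCTG, whose first base lies 196 bases before the start, and 1 GGCGCC match, beginning 231 bases before it. The Id4 stretch held 1 GGCGCC match, beginning 148 bases before the start, and no E-box. Among 32851 RefSeq stretches of the same length, 66.2% held at least 1 CANNTG and 9.59% at least 1 GGCGCC. GC content was 62.8% for Id3, 62.8% for Id2 and 75.6% for Id4, against a median of 52.4% over all stretches. These matches describe the letters only and say nothing about binding in these samples.

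The genes around the Id family were taken from 15 lists with 178 genes besides the Id genes, of which 160 had a probe set and 74 were kept. Of the 74, 58 were lower and 16 higher in the knockout pool. Direction alone was not counted over all kept genes, so no comparison is drawn from these counts. Max, Mitf, Gdf2, Acvrl1, Acvr2a, Smad5, Tgfbr3, Socs3 and Ppargc1a reached the floor in the wild-type pool only, so the filter fixed them as lower. It likewise fixed Mesp1 and Tcfl5 as higher, since only their knockout values reached the floor. Direction counts of single lists below carry the same limits. Of the 74, 14 (18.9%) were at least 2-fold lower and 6 (8.11%) at least 2-fold higher, against 9.14% and 13.7% of all kept genes. Their median was -0.43 against -0.08. Once dim values were raised to the floor, 11 (14.9%) were at least 2-fold lower and 6 at least 2-fold higher, against 7.99% and 11.4% of all kept genes.

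The E proteins, the direct partners of Id proteins, differed by less than 2-fold at their brightest probe sets. Tcf4, which encodes E2-2, was at 539 in wild type and 350 in knockout, a difference of -0.62. Its 5 kept probe sets ranged from -1.33, which is past 2-fold, to -0.61, with a mean of -0.997. Tcf12, which encodes HEB, was at 707 and 523 (-0.43). Tcf3, which encodes the E2A proteins E12 and E47, was at 38.1 and 39.3 (0.05), close to the floor. The difference of Id3 was larger in size than that of any of the 3 partners. The family was picked for the fall of Id3, so this is no result about the partners. The difference of Id2 was smaller in size than those of Tcf4 and Tcf12.

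Most tissue-specific bHLH factors were too dim to compare: 25 of 28 with a probe set were below the floor in both pools, among them Twist1 and Twist2, factors of mesenchymal cells, and Tal1 and Lyl1, factors of blood and endothelial cells. Tcf21, a factor of visceral fat progenitors, was at 63.6 in wild type and 59.8 in knockout (-0.09). Tcfl5, a bHLH factor of spermatocytes, was at 22.6 in wild type, under the floor, and at 1584 in knockout, which makes it at least 49.5-fold higher. Mesp1, a factor of early mesoderm, was at 12.0 (under the floor) and 74.2, or at least 2.32-fold higher. The germ cell list was higher in the same pool (median 4.60), and its part in these values was not tested.

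Among the repressors of the Hes, Hey and Bhlhe group, 9 of 10 were below the floor, and Bhlhe40, a clock-linked repressor, was at 134 and 106 (-0.34). Of 11 kept bHLH leucine zipper factors, which bind E-boxes without E proteins, 8 were lower and 3 higher, with a median of -0.47. Mitf, known from pigment cells, mast cells and macrophages, was at 39.6 in wild type and 11.9 (under the floor) in knockout, at least 1.24-fold lower. Mlxipl, the carbohydrate-responsive factor ChREBP, was 2.52-fold lower, at 95.7 and 38.0. Max, the partner of Myc, was at 55.0 and 28.7, below the floor (-0.94). Mxi1, which opposes Myc, was at 224 and 439 (0.97), Mnt at 58.3 and 69.4 (0.25), and Srebf2, a regulator of sterol synthesis, at 38.6 and 39.9 (0.05).

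Partners of Id proteins outside the bHLH class were lower on balance, 6 of 7 kept genes, with a median of -0.75, but only Ets2 passed 2-fold. Ets2, an ETS factor, was at 166 in wild type and 68.3 in knockout, 2.43-fold lower. Elk3, an ETS factor of endothelial cells, was at 208 and 105 (-0.99). Rb1, the retinoblastoma protein bound by Id2, was at 547 and 282 (-0.95). Pax8 was at 54.4 and 62.3 (0.20), Ets1 at 359 and 274 (-0.39) and Elk4 at 143 and 101 (-0.50).

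Genes that act on the stability of Id proteins were all higher. All 4 of the list were kept and at least 2-fold higher, with a median of 1.69. Over all kept genes 13.7% were at least 2-fold higher. Usp1, the deubiquitinase that spares Id proteins from degradation, was at 460 in wild type and 2048 in knockout, 4.45-fold higher, and its 3 kept probe sets ranged from 2.15 to 2.96. Wdr48, the cofactor that activates Usp1, was at 91.0 and 429.8, 4.72-fold higher, with 0.94 at the lower of its 2 kept probe sets. Cops5, a subunit of the COP9 signalosome, was at 392 and 916, 2.34-fold higher, and Fzr1, an activator of the anaphase-promoting complex, at 70.6 and 161, 2.29-fold higher. These genes are expressed in many tissues, and the germ cell markers were higher in the same pool by a median of 4.60. Their part in these values was not tested. The array measured RNA and not Id protein, so no direction of Id protein stability is read from these values.

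**Figure D3:**
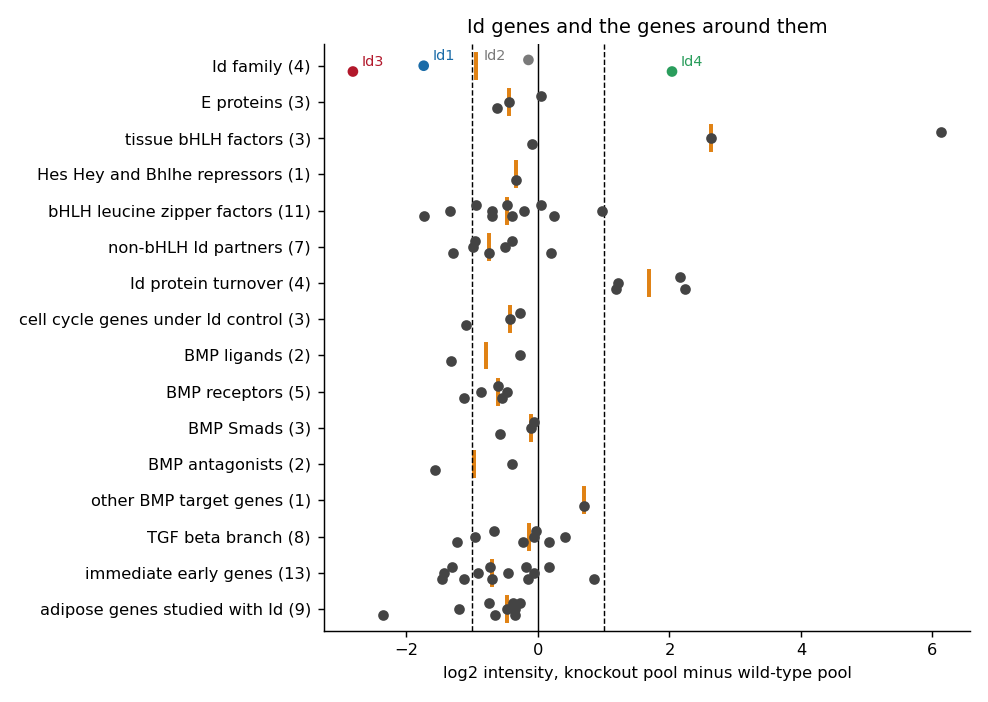
log2 difference, knockout minus wild type, of each kept gene (points) in the Id family and the 15 lists around it, with the number kept in brackets, the list median as an orange bar and dashed lines at a 2-fold difference; vertical offsets within a row only separate points. Most lists centre to the left of 0, the 4 Id protein turnover genes lie between 1.19 and 2.24, and Tcfl5 lies farthest right at 6.13.

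The BMP pathway, which induces Id1, Id2 and Id3, was sparsely detected. Of 44 genes with a probe set in 5 lists, 13 were kept, of which 12 were lower and 1 higher. Of the 12, Gdf2, Acvrl1, Acvr2a and Smad5 reached the floor in the wild-type pool only, so the filter fixed their direction. As measured, 3 (23.1%) were at least 2-fold lower and 0 at least 2-fold higher, with a median of -0.54. The median over all kept genes was -0.08. The shares over all kept genes were 9.14% and 13.7%. With dim values raised to the floor, 2 (15.4%), Gdf10 and Chrdl1, were at least 2-fold lower and the median was -0.38. The shares over all kept genes were then 7.99% lower and 11.4% higher. Among ligands, 11 of 13 were below the floor, including Bmp2, Bmp4 and Bmp7. Gdf10, also called BMP3b, was at 167 in wild type and 67.0 in knockout, 2.49-fold lower. Gdf2, also called BMP9, was at 32.1 and 26.7, just above and below the floor (-0.27).

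All 5 kept receptor genes were lower in the knockout pool. For Acvrl1 and Acvr2a the filter fixed this direction, since only their wild-type values reached the floor. Eng, Bmpr1a and Acvr1 reached it in both pools. Acvrl1, the endothelial receptor ALK1, was at 41.5 and 19.0, below the floor, at least 1.30-fold lower. Eng, the endothelial co-receptor endoglin, was at 81.3 and 44.7 (-0.86). Bmpr1a, a type I BMP receptor, was at 225 and 148 (-0.60), and its 4 kept probe sets ranged from -0.78 to -0.60. Acvr1, the receptor ALK2, was at 114 and 78.3 (-0.54), and Acvr2a, a type II receptor, at 37.5 and 26.9, below the floor (-0.48). Bmpr2 was below the floor in both pools.

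Of the 3 kept Smads that carry the BMP signal, Smad1 and Smad4 differed little at their brightest probe sets. Smad1 was at 373 in wild type and 347 in knockout (-0.10), and the common partner Smad4 at 718 and 689.8 (-0.06), although the lowest of 3 kept Smad4 probe sets differed by -0.83. Smad5 was at 38.8 and 26.0, below the floor (-0.58). Of the antagonists, Chrdl1, a BMP-binding secreted protein, was at 251 and 85.0, 2.95-fold lower, but a second kept probe set was higher by 1.17. Twsg1 was at 120.4 and 91.9 (-0.39). Of the other BMP target genes, 8 of 9 were below the floor in both pools, including the inhibitory Smads Smad6 and Smad7, so that Id1 and Id3 could be set beside only Bambi, a decoy receptor, at 38.2 and 62.0 (0.70). Bambi thus differed in the direction opposite to Id1 and Id3, but by only 1.62-fold at 1 probe set close to the floor in wild type.

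In the TGFβ branch, which shares Smad4, 6 of 8 kept genes were lower, with a median of -0.14. Tgfbr2, the type II receptor, was at 997 and 423, 2.35-fold lower, whereas Tgfbr1 was at 397 and 391 (-0.02) with a second probe set at 0.83. Tgfbr3, or betaglycan, was at 33.3 and 17.1, below the floor (-0.96), and the ligand Tgfb1 at 149 and 93.8 (-0.67). The transcriptional repressors Tgif1 and Skil were at 88.5 and 117 (0.41) and at 679 and 762 (0.17).

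Id genes also respond to serum, so immediate early genes were set beside them. Of 13 kept, 11 were lower (median -0.70), and 4 were at least 2-fold lower as measured, or 3 with Socs3 held at the floor. Over all kept genes these shares were 9.14% as measured and 7.99% with dim values raised to the floor. Dusp1, a phosphatase that switches off MAP kinases, was at 474 in wild type and 173 in knockout, 2.74-fold lower. Zfp36, which destabilises mRNAs, was at 185 and 68.8, 2.69-fold lower, and Klf6 at 1143 and 462, 2.48-fold lower. Socs3, a feedback inhibitor of cytokine signalling, was at 47.4 and 21.8, below the floor, at least 1.48-fold lower. Egr2, Klf4 and Ier3 lay at the other end, with differences of 0.85, 0.17 and -0.06. The lowest difference in this list was -1.46, for Dusp1, and Fos, Fosb, Junb and Atf3 were below the floor in both pools. The part of tissue handling in the Id values was not tested.

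Of 3 kept cell cycle inhibitors linked to Id proteins, none was higher in the knockout pool. Cdkn1a, or p21, was at 50.3 and 41.6 (-0.28), Cdkn1b, or p27, at 388 and 288 (-0.43), and Cdkn2b, or p15, at 81.7 and 38.4, 2.13-fold lower. Cdkn2a and Cdkn1c were below the floor in both pools. Of the adipose genes studied with Id proteins, all 9 kept were lower and 2 at least 2-fold lower (median -0.47). Over all kept genes 9.14% were at least 2-fold lower. Pparg, the master regulator of fat cell formation, was at 1893 and 370.1, 5.12-fold lower, and Cebpa, its partner factor, at 2073 and 901, 2.30-fold lower. Vegfa, the vascular growth factor, was at 247 and 148 (-0.75). Adipoq, the adipokine adiponectin, whose promoter E proteins and SREBP-1c are known to act on, was at 10259 and 8029.6 (-0.35), and Srebf1, the gene of SREBP-1c, at 798 and 578 (-0.47). Angptl4, a PPAR target, was at 1239 and 1024 (-0.27) and Ppargc1a at 35.6 and 28.1, below the floor (-0.34). Pparg was the only gene of these lists lower than Id1, and none was lower than Id3. As the family was picked for the fall of Id3, this ranking is a description only.

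Markers of the cells that could carry Id transcripts were mostly lower in the same pool. Of 10 kept endothelial markers, 9 were lower (median -1.03). As measured 6 were at least 2-fold lower. This count was 5 with Robo4 held at the floor and 4 after centring on the median difference. It was 3 with the intensity trend removed and 2 with 32 added before log2. Over all kept genes the shares at least 2-fold lower were 9.14%, 7.99%, 7.78%, 6.86% and 5.27% in the same order. The summed intensity of all 12 on the array was 1517 in wild type and 787 in knockout, and Kdr and Tie1 were below the floor in both. The differences of Id1 and Id3 were lower than those of all 10 kept endothelial markers, of which Sox18 was lowest at -1.59. Nothing is read from this order, because the family was picked on this contrast. All 8 kept adipocyte markers were lower, by a median of -0.93, with summed intensities of 56226 and 38733, and 1 of them, Lep, was lower than Id3. All 8 macrophage markers were lower, by a median of -0.86, among them Cd163, at 85.7 and 14.0, under the floor, at least 2.68-fold lower. Of 6 kept stromal markers 4 were lower (median -0.72, or -0.37 once dim values were raised to the floor). Of 7 kept mural cell markers 3 were lower and 4 higher (median 0.19). Pdgfrb (-1.03), Rgs5 (-0.79) and Notch3 (-0.66) were lower. Myh11 (1.04), Cnn1 (0.80), Tagln (0.19) and Acta2 (0.19) were higher. Among lymphocyte markers 3 of 8 were kept, all lower, of which Ighm (-2.06) was lower than Id1.

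The epididymis and mesothelial marker lists did not as a whole share that direction. Of 9 kept epididymis markers 8 were higher, with a median of 0.33 and summed intensities of 50912 and 60369.6. Mesothelial markers were divided, 3 lower and 3 higher, with a median of 0.20. Upk3b was lower (-1.33), as were Msln (-0.78) and Wt1 (-0.01), both below the floor in knockout. The keratin genes Krt8 (0.63), Krt19 (0.44) and Krt18 (0.42) were higher. Measured against the median adipocyte marker, Id3 stood at -1.88, Id1 at -0.80, Id2 at 0.79 and Id4 at 2.97. Measured against the median endothelial marker the values were -1.79, -0.71, 0.88 and 3.07. Each of these scales adds 1 constant, 0.93 or 1.03, to the difference of every gene, so the shifts of the Id values follow from the scale and are no check on them. The part that a different mix of tissues has in the Id values was not tested.

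**Figure D4:**
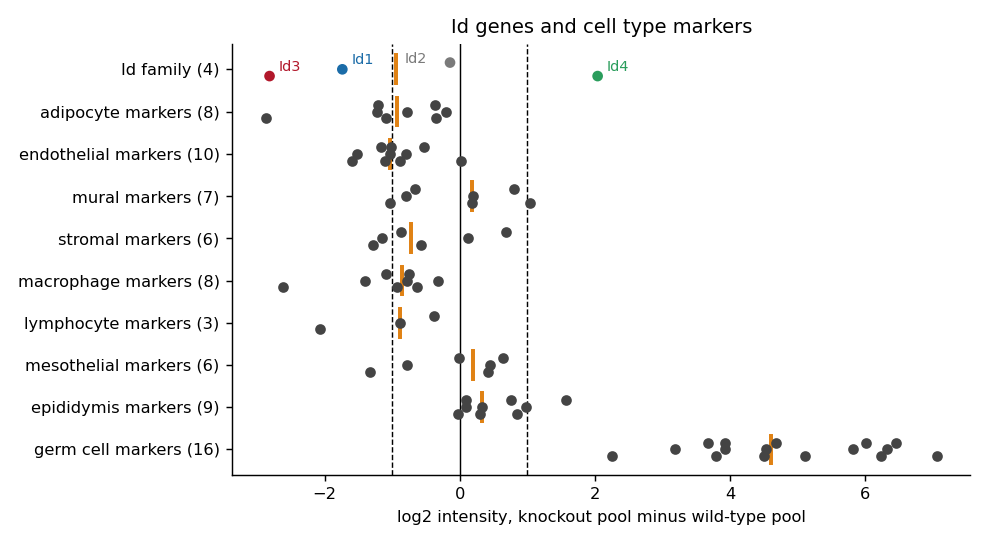
log2 difference, knockout minus wild type, of the 4 Id genes and of each kept cell type marker (points), with the number kept in brackets, list medians as orange bars and dashed lines at a 2-fold difference; vertical offsets only separate points. Id3 lies left of every marker except Lep, Id2 lies near 0, and Id4, as measured, lies left of all 16 germ cell markers.

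The 5 genes whose pair of values was nearest to that of Id3, by distance in log2 units in the plane of wild-type and knockout intensity, were Iapp, Mpdz, H6pd, Lgals12 and Phlda3. Iapp, which encodes the islet hormone amylin, was at 642 in wild type and 105 in knockout, a distance of 0.21, and its 3 kept probe sets ranged from -3.90 to -1.77. Mpdz, a scaffold protein with many PDZ domains, was at 629 and 111, a distance of 0.25. H6pd, the hexose-6-phosphate dehydrogenase of the endoplasmic reticulum, was at 774 and 130.4, a distance of 0.31. Lgals12, a galectin of adipocyte lipid droplets, was at 623 and 125 (0.35), and Phlda3, a p53 target that restrains Akt, at 602 and 124 (0.38). With 2 arrays this likeness rests on 2 values per gene and shows closeness of intensity only.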

How the data were processed

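The authors deposited 1 table of probe set intensities, made with GCRMA 2.20 per the submitters' processing notes, with 1 array for each of 2 pools. The deposited intensities run from 1.91 to 36322 and are therefore linear; log2 was taken. GCRMA's background correction compresses dim probe sets and can inflate folds near background, so a dimmer value below the floor was set to 32 and the fold written "at least". The probe annotation is that of a smaller array than the design text names. Symbols were updated by Entrez identifier to GRCm38.p6 gene records, and probe sets naming several genes (691) or none (1606) were left out of gene comparisons. Python 3.11.15 with pandas 2.3.3 and statsmodels 0.14.6 was used, and the counting was tested on simulated data. Precision is limited by having 1 array per pool.

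The members, the 15 lists around them and the 9 marker lists were chosen with earlier results of these data known. Named genes are all Id probe sets, Ppard, kept members of lists with at most 5, the ends of longer lists and members past 2-fold, and the 5 genes nearest to Id3. Lep, Mest, Sox18, Cd163, Ighm, Sycp3, Meig1, Robo4, Srebf1 and the named genes below the floor on both arrays were added after their values were seen. So were the named mural and mesothelial markers. Alternatives were other floors, scalings, an added constant, other ways to represent a gene and other fold sizes.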

Additional observations from a re-analysis of the deposited data

How the results depend on the processing

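Id3 and Id1 were lower and Id4 higher under every alternative run, over ranges of -2.81 to -1.79, -1.74 to -0.71 and 1.34 to 3.07. Other floors, raising dim values to the floor and other ways to represent a gene could not change Id3 or Id1. Each has 1 probe set with both values above every floor tried, so these alternatives are no check on it. With 32 added to both intensities before log2 the differences were -2.49 for Id3, -1.44 for Id1 and 1.34 for Id4, because a constant shrinks differences of dim genes. Averaging both kept probe sets gave 1.78 for Id4. Id2 turned positive when the trend with intensity was removed (0.0029, and 0.035 at its second probe set). Centring on the adipocyte or endothelial markers, added after seeing the data, gave -1.88 and -1.79 for Id3, -0.80 and -0.71 for Id1, 0.79 and 0.88 for Id2, and 2.97 and 3.07 for Id4; it shifts every gene alike, by 0.93 and 1.03, so the direction of these moves was fixed by its construction. It left 1 Id probe set at least 2-fold lower instead of 2. The 2 higher Id probe sets became 1 with 32 added or at 3-fold. Of the genes around the family, 14 were at least 2-fold lower, 8 with 32 added and 1 under either marker centring; 6 were at least 2-fold higher, 14 and 17 under the adipocyte and endothelial centring. Removing the intensity trend moved the median of all genes by 0.13 and changed the counts of genes at least 2-fold lower and higher from 597 and 893 to 448 and 1015. Of 48 counts of single lists 21 were above 0, and of their 231 values under the alternatives 176 stayed within 1.5 times. No paired analysis was possible because each group has 1 array. Intensities near the floor limit Id4, Tcf3 and most BMP genes.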
